A study of Homo sapiens with 6 samples.

Results

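Interferon-stimulated genes were followed here as a group of 39 listed genes in A375 cells, an established human melanoma cell line, with and without the phosphatase PRL3. The members were taken from a fixed list of gene symbols, which was chosen with earlier results of these data known. All 39 were found among the 58243 gene identifiers counted. Newly made RNA was measured by 4sU-seq, in which cells take up 4-thiouridine for a short pulse, so that RNA made during the pulse can be tagged with biotin, pulled down on streptavidin and sequenced. The EV group held 3 libraries (B1, B2 and B3) of cells stably transfected with the empty plasmid, and the PRL3 group held 3 libraries (B9, B10 and B11) of cells stably transfected with a plasmid for HA-tagged PRL3. Both groups were kept under hygromycin B at 100 µg/ml and received 4-thiouridine at 500 µM for 20 min, and no label names an interferon treatment. Whether either line grew from a single clone, and whether the libraries of a group came from separate cultures, is not given in the sources used here, so p-values measure the spread between these libraries only.

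Interferons are secreted proteins, many of which are released when cells sense viral nucleic acid. Type I and type III interferons act through receptor-bound kinases on a complex of STAT proteins and IRF9 called ISGF3, which enters the nucleus and binds the interferon-stimulated response element (ISRE) of target promoters, and interferon gamma acts through STAT homodimers. The target genes encode sensors, enzymes that destroy or block viral RNA, membrane proteins that stop virus entry or release, a ubiquitin-like modifier, and regulators that switch the response on and off. Tumour cells, melanoma cells among them, can express such genes at a steady level without added interferon.

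Gene counts summed to between 36532207 and 57952035 reads a library. PTP4A3, the gene for PRL3, checked the group labels, with normalized counts of 161, 212 and 279 in the EV libraries and 22328, 28767 and 22065 in the PRL3 libraries (log2 fold change 6.80, standard error 0.25, adjusted p = 1.1e-08). The libraries of the groups differed in more than PRL3: reads aligned outside annotated exons of the expected strand made up 28.7 to 41.1% of uniquely aligned reads in EV and 62.8 to 69.1% in PRL3, and mitochondrial genes took 2.67 to 2.90% of gene counts in EV and 1.35 to 2.32% in PRL3. SOX10, MITF, S100B, MCAM, CSPG4, PRAME and AXL, genes known from melanoma or neural crest cells, were detected, while TYR and MLANA, which mark pigmented melanocytes, were at or near 0. The summed normalized count of 16 melanoma markers was 89392 to 111150 in EV and 54522 to 63758 in PRL3. Of 12 tested markers 9 were lower (75%), against 31.6% of all tested protein-coding genes and 48.4% of those under 10 kb. MITF, EGFR and PMEL were the tested markers not called, at log2 fold changes of 0.36, 0.086 and -0.33, and MITF was higher in every PRL3 library. The sum of 10 leukocyte markers was 219 to 312 in EV and 274 to 329 in PRL3. CD3D, MS4A1 and NKG7 were at 0 in all 6 libraries. Most of the sum came from LYZ, ITGAX and CD14. Their mean normalized counts were 116, 113 and 24.7 in EV and 78.9, 152 and 47.0 in PRL3. These 3 were tested, and none was called lower or higher. The sum of 6 epithelial markers was 1392 to 1678 in EV and 523 to 816 in PRL3, with 2 of 3 tested markers lower (66.7%). These 2 were KRT14 and CLDN4, which made up most of the sum. Their mean normalized counts were 1153 and 396 in EV and 464 and 149 in PRL3, while EPCAM, KRT5 and CDH1 were near 0. The part of these differences in the members' values was not tested, and in bulk samples fewer cells of a type and less RNA per cell cannot be told apart.

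Of the 39 members, 38 passed edgeR's filter on low counts and were tested, 12 were lower in PRL3 cells, 4 were higher and 22 did not pass the threshold (adjusted p under 0.05, Benjamini-Hochberg adjustment of edgeR's quasi-likelihood test over the 23884 genes tested, which gives every adjusted p below). The lower members were ISG15, IFITM3, UBE2L6, IFITM2, IFI35, IRF7, IFI6, IFIT1, GBP2, OAS1, PARP9 and ISG20, and the higher ones were MX1, GBP1, IRF1 and IRF2. The lower share of 31.6% stood beside 22.7% of all tested genes and 31.6% of the 14443 tested protein-coding genes, and the higher share of 10.5% beside 20% of all tested genes and 15.2% of protein-coding genes. The members' lower share was therefore that of protein-coding genes at large, and nothing is read from it about the list. Their libraries did not overlap between groups in 15 lower members (39.5%) and 6 higher members (15.8%), against 36.7% and 22.2% of protein-coding genes. For such a gene the two-sided exact permutation test gives p = 0.1, the smallest that 3 libraries against 3 allow. The members together took 0.0805 to 0.0865% of gene counts in EV and 0.0813 to 0.0911% in PRL3, ranges that overlap.

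The members' median log2 fold change of PRL3 against EV was -0.23, with quartiles of -0.98 and 0.14, and 27 members lay below 0 and 11 above. The median was 0.11 over all tested genes and -0.15 over tested protein-coding genes. It depended on the scaling: with library size alone the members' median turned to 0.25 while that of all genes was 0.60, and with scaling by all uniquely aligned reads it was -0.70 while that of all genes was -0.36. Under these scalings the protein-coding median was 0.34 and -0.63, so that the members' median lay slightly below it each time. Single members spread far more widely than these medians, from -2.07 for ISG15 to 1.77 for IFI44L. IFI44L had only 7, 3 and 9 reads in EV and was not called. The largest called increase was 0.68, for MX1.

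**Figure D1:**
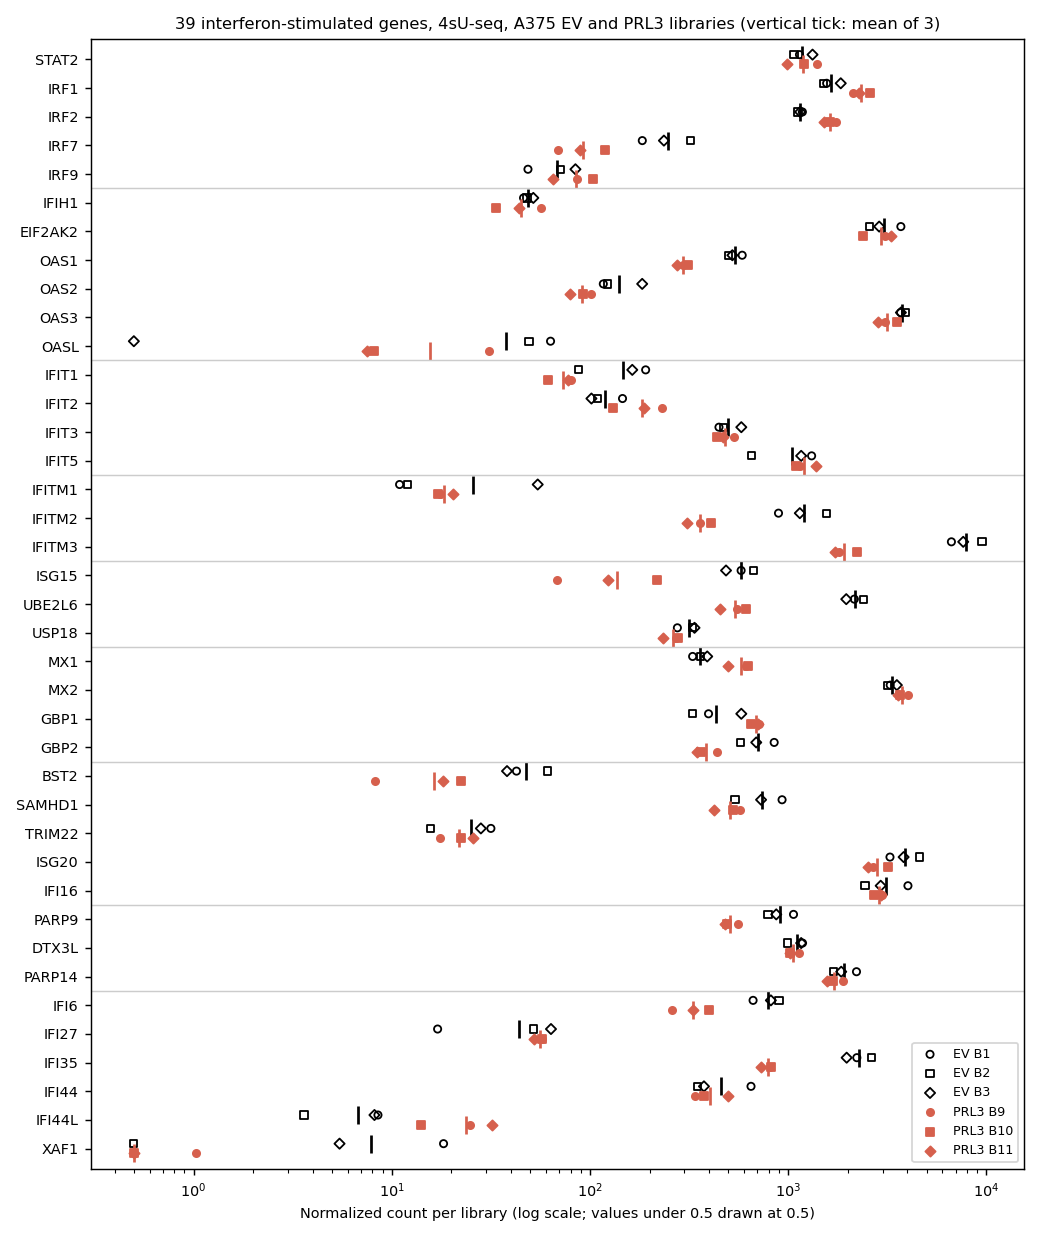
Normalized counts (log axis) of the 39 members in each EV library (open black symbols) and PRL3 library (filled red symbols), grouped by role, with a vertical tick at the mean of 3 libraries and values under 0.5 drawn at 0.5. IFITM3, the most abundant member in EV, falls from 6674 to 9522 in EV libraries to 1734 to 2236 in PRL3 libraries, while STAT2, IFIT3 and DTX3L overlap.

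Levels between genes were compared as CPM per kilobase of exon (CPM being counts scaled to a common library size). IFITM3 stood first in both groups, at 59.4 ± 10.8 (SD, n = 3) in EV and 14.4 ± 2.02 in PRL3. In EV cells it was followed by IFI35 at 24.7 ± 3.64 and UBE2L6 at 22.4 ± 2.23, whose values lay within their spread of each other, and then by IFI6 at 18.0 ± 2.71, IFITM2 at 15.9 ± 4.46 and ISG15 at 14.1 ± 2.21, which also lay within theirs. All 6 of these leading members were among those lower in PRL3 cells. Ordering by EV level favours such genes, so nothing is read from this. The first 6 by PRL3 level were IFITM3, IFI16, IFI35, ISG20, IFI6 and IFIT5, of which IFI16 and IFIT5 were not called. In PRL3 cells the second place went to IFI16, a DNA sensor, at 11.5 ± 0.618, close to its EV level of 12.6 ± 3.25, and ISG15 moved from place 6 to place 17. The lowest levels per length in EV were those of IFI44L, XAF1 and TRIM22, each under 0.05.

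The promoters of the members were searched for 2 short motifs on both strands, in windows of 300 bases from 250 bases before to 50 after the transcription start (RefSeq, GRCh38.p14). A window was given for 29 of the 39 members. The ISRE core GAAANNGAA was found in 19 of the 29 (65.5%), against 8.29% of all 27305 promoters in the table and 6.68% of the promoters of tested protein-coding genes. It was found in 5 of 9 members called lower, in 2 of 3 called higher and in 12 of 16 not called. The STAT site TTCNNNGAA was found in 8 of 29 (27.6%), against 7.88% of all promoters, and in 2 of 9, 1 of 3 and 5 of 16 of these groups. Both motifs can overlap, as in the BST2 window, and a match describes letters only. The following windows show the same core in promoters of members that were lower (ISG15, IFITM3, IFI6, IFIT1), higher (GBP1, MX1) and not called (OAS3, DTX3L). The capitals mark the core, which in IFIT1 and GBP1 lies on the opposite strand, and each window is written 5′ to 3′ on the strand of its gene.
ISG15, chr1:1013380-1013408, plus strand: tcgggaaaggGAAACCGAAactgaagcca
IFITM3, chr11:320877-320905, minus strand: aaactgttgaGAAACCGAAactactgggg
IFI6, chr1:27672289-27672317, minus strand: ggagagagggGAAAATGAAactgcagagt
IFIT1, chr10:89392511-89392539, plus strand: actttcccctTTCGGTTTCcctaggtttc
GBP1, chr1:89065316-89065344, minus strand: acgaagtactTTCAGTTTCatattactct
MX1, chr21:41420559-41420587, plus strand: gagcagaaatGAAACCGAAactgaattgt
OAS3, chr12:112938452-112938480, plus strand: agccgggcggGAAAACGAAaccagaaatc
DTX3L, chr3:122564322-122564350, plus strand: ccagggaagcGAAACTGAAactttgcgcc
The cores began 107, 35, 115, 102 and 126 bases before the start in ISG15, IFITM3, IFI6, IFIT1 and GBP1, 11 bases after it in MX1, and 12 and 6 bases before it in OAS3 and DTX3L. ISG15 carries the core 3 times in a row at steps of 6 bases.

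Among the transcription factors, IRF7 was lower, IRF1 and IRF2 were higher, and STAT2 and IRF9 did not pass the threshold. Gene positions are given on GRCh38 from GENCODE release 44. STAT2 (chr12:56341597-56360203), an ISGF3 subunit, had normalized counts of 1142, 1071 and 1329 in EV and 1398, 1203 and 988 in PRL3. The groups overlapped, at a log2 fold change of 0.019, near 0 (standard error 0.18, adjusted p = 0.943), with a 95% interval of -0.36 to 0.40. IRF9 (chr14:24161234-24168043), the DNA-binding subunit of ISGF3, was much less abundant, at 48.7, 71.0 and 84.6 in EV and 86.5, 104 and 65.4 in PRL3, and its groups overlapped too (log2 fold change 0.32, standard error 0.39, adjusted p = 0.538). Part of its exons (1544 bases) is shared on the same strand with another annotated gene that had 15 to 62 reads, so its counts are uncertain.

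IRF7 (chr11:612553-615983), which amplifies the production of type I interferon, had 184, 322 and 236 normalized counts in EV and 69.0, 119.8 and 89.0 in PRL3. The groups did not overlap, and IRF7 was 2.66-fold lower (log2 fold change -1.41, standard error 0.32, adjusted p = 0.00328). IRF1 (chr5:132440440-132508719), an activator of interferon-stimulated and antigen presentation genes, went the other way, with 1566, 1515 and 1845 in EV and 2123, 2599 and 2276 in PRL3. It was 1.42-fold higher with no overlap (log2 fold change 0.51, standard error 0.16, adjusted p = 0.0192). IRF2 (chr4:184385702-184474558), a relative that can compete with IRF1 for the same sites, had 1181, 1121 and 1151 in EV and 1744, 1621 and 1522 in PRL3. Its libraries did not overlap either, and it was 1.41-fold higher (log2 fold change 0.50, standard error 0.15, adjusted p = 0.0171). Scaled by all uniquely aligned reads, IRF1 and IRF2 stood at log2 fold changes of 0.036 and 0.022 and did not pass the threshold. Without PRL3 B10 or B11 the IRF1 call was lost at log2 fold changes of 0.43 and 0.53 (adjusted p = 0.0997 and 0.0552). That of IRF2 was lost without B9 or B10 at 0.46 and 0.51 (adjusted p = 0.0747 and 0.0569), so both folds stayed close to those of all 6 libraries.

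The sensors and antiviral enzymes included 1 lower gene among 6 (16.7%), against 31.6% of tested protein-coding genes. OAS1 (chr12:112905856-112933219) makes the oligoadenylates that activate RNase L, and its normalized counts were 587, 501 and 524 in EV and 293, 311 and 277 in PRL3. The groups lay well apart, and OAS1 was 1.83-fold lower (log2 fold change -0.87, standard error 0.20, adjusted p = 0.00354). With library size alone its log2 fold change was -0.38 and missed the threshold. OAS3 (chr12:112938051-112976460), a longer enzyme of the same kind and the most abundant gene of this role by count, had 3699, 3908 and 3711 in EV and 3092, 3545 and 2839 in PRL3. Its libraries did not overlap, but the difference of -0.26 on the log2 scale (standard error 0.15) did not pass (adjusted p = 0.177).

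OAS2, the third enzyme of this locus, also had lower values in every PRL3 library without passing (log2 fold change -0.64, standard error 0.33, adjusted p = 0.134). EIF2AK2, which encodes the RNA-activated kinase PKR, overlapped between groups (-0.060 on the log2 scale, 95% interval -0.45 to 0.33), as did IFIH1, the cytoplasmic RNA sensor MDA5 (-0.13, 95% interval -1.13 to 0.87). OASL, a relative without enzyme activity, turned on 1 library: its normalized counts were 63.3, 49.3 and 0 in EV and 30.9, 8.19 and 7.50 in PRL3. It had 0 reads in EV B3, and the log2 fold change came to -1.27 (standard error 1.10, adjusted p = 0.382) with that library and -1.87 (adjusted p = 0.0341) without it.

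**Figure D2:**
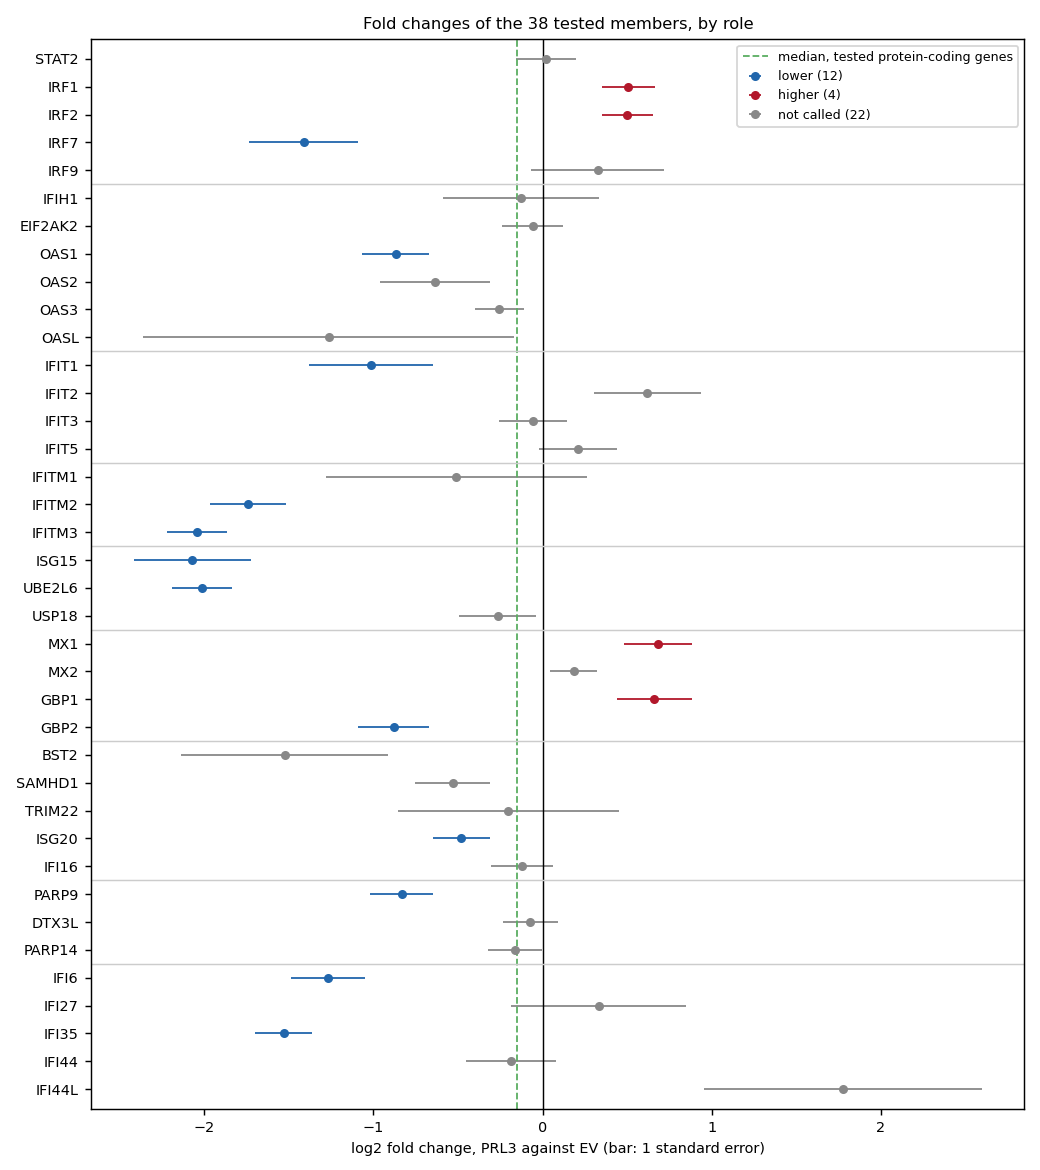
Log2 fold change of PRL3 against EV for the 38 tested members by role, with bars of 1 standard error, in blue for lower, red for higher and grey for not called, and a dashed line at the protein-coding median of -0.15. The IFITM and ISG15 groups hold the lowest values, with IFITM3 at -2.04, ISG15 at -2.07 and UBE2L6 at -2.01, while the large GTPases lie on both sides of 0.

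The IFIT genes, whose products bind foreign RNA ends and block translation, lie together on chromosome 10 and did not move as 1 group. IFIT1 (chr10:89392546-89406487) had normalized counts of 191, 87.8 and 164 in EV and 80.3, 61.8 and 77.2 in PRL3. Its highest PRL3 library lay just under its lowest EV library, and it was 2.02-fold lower (log2 fold change -1.02, standard error 0.36, adjusted p = 0.0381). This call was lost in 9 of the alternative settings, among them the removal of any library but EV B2 (log2 fold changes of -1.08 to -0.78, adjusted p = 0.0555 to 0.144). IFIT5 (chr10:89414568-89421605), the most abundant of the family by count, had 1315, 657 and 1165 in EV and 1145, 1095 and 1385 in PRL3, and the groups overlapped (log2 fold change 0.21, standard error 0.23, adjusted p = 0.5). IFIT2 and IFIT3, partners of IFIT1, had log2 fold changes of 0.62 (adjusted p = 0.131) and -0.059 (adjusted p = 0.837), and neither passed. IFIT2 passed as higher with library size alone (1.13, adjusted p = 0.0119) and with protein-coding genes only (0.81, adjusted p = 0.0355). With all uniquely aligned reads IFIT2 stood at 0.13, and IFIT3 passed as lower (-0.53, adjusted p = 0.0429).

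The IFITM genes encode small membrane proteins that hinder the fusion of entering viruses, and 2 of the 3 were lower (66.7%). All 3 are under 10 kb, where 48.4% of tested protein-coding genes were lower, so nothing is read from this count. IFITM3 (chr11:319676-329475) had normalized counts of 6674, 9522 and 7655 in EV and 1809, 2236 and 1734 in PRL3. The gap between the groups was far wider than the spread within them, and IFITM3 was 4.13-fold lower (log2 fold change -2.04, standard error 0.18, adjusted p = 9.2e-06). IFITM2 (chr11:303655-309397) had 895, 1563 and 1147 in EV and 359, 407 and 309.8 in PRL3, with the groups again apart and a 3.34-fold lower level (log2 fold change -1.74, standard error 0.22, adjusted p = 5.3e-05). IFITM1 was nearly silent, at 10.96, 12.0 and 54.6 in EV and 17.5, 17.1 and 20.4 in PRL3. EV B3 alone held the high value, and the log2 fold change came to -0.51 (standard error 0.77) with it and 0.66 without it, neither past the threshold. These 3 genes are close copies in sequence, so the division of reads among them is uncertain.

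ISG15 conjugation held the lowest fold change of the 38 tested members, that of ISG15 itself. ISG15 (chr1:1001138-1014540) encodes a ubiquitin-like protein that is attached to other proteins during the interferon response, and its normalized counts were 579.7, 667 and 486 in EV and 68.0, 218 and 123 in PRL3. PRL3 B9 was lowest and B10 highest, yet all 3 lay below every EV library, and ISG15 was 4.20-fold lower (log2 fold change -2.07, standard error 0.35, adjusted p = 0.00038). UBE2L6 (chr11:57551656-57568284), the conjugating enzyme that carries ISG15, had 2161, 2399 and 1967 in EV and 553, 612 and 451 in PRL3. Its libraries were tightly grouped, and it was 4.03-fold lower (log2 fold change -2.01, standard error 0.18, adjusted p = 9.6e-06). USP18, the protease that removes ISG15 and also restrains the interferon receptor, overlapped between groups (-0.27 on the log2 scale, 95% interval -0.75 to 0.22, adjusted p = 0.372).

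The large GTPases MX1, MX2, GBP1 and GBP2 act against viruses and intracellular bacteria, and they included both directions. MX1 (chr21:41420020-41470071), which blocks influenza and other RNA viruses, had normalized counts of 330.0, 362 and 391 in EV and 611, 628 and 498 in PRL3. The groups did not overlap, and MX1 was 1.60-fold higher (log2 fold change 0.68, standard error 0.20, adjusted p = 0.0145). MX2 (chr21:41361999-41409393), which acts at the nuclear pore and had the highest count of this role, had 3277, 3165 and 3541 in EV and 4036, 3694 and 3604 in PRL3. These libraries did not overlap either, but the log2 fold change of 0.18 (standard error 0.14) did not pass (adjusted p = 0.322). MX2 passed as higher with library size alone (0.68, adjusted p = 0.0024) and with protein-coding genes only (0.36, adjusted p = 0.0441), and stood at -0.29 with all uniquely aligned reads.

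GBP1 (chr1:89051882-89065360), a GTPase induced above all by interferon gamma, had 397, 328 and 581 in EV and 710.4, 653 and 705 in PRL3. Its PRL3 libraries were tightly grouped above a wider EV group, and GBP1 was 1.58-fold higher (log2 fold change 0.66, standard error 0.22, adjusted p = 0.029). GBP2 (chr1:89106132-89150456), its neighbour on chromosome 1, had 851, 574 and 691 in EV and 439.6, 362 and 348 in PRL3. It went the other way, with a 1.84-fold lower level and no overlap (log2 fold change -0.88, standard error 0.21, adjusted p = 0.00431). GBP2 shares 621 bases of exon on the same strand with GBP7, which had at most 13 reads. With library size alone the GBP2 call was lost, at -0.38 (adjusted p = 0.171). Both MX1 and GBP1 fell short of the threshold when the counts were scaled by all uniquely aligned reads, at log2 fold changes of 0.21 and 0.20. The call of MX1 was also lost without PRL3 B9 (0.65, adjusted p = 0.0592) or B10 (0.62, adjusted p = 0.0742), and that of GBP1 without any library but EV B3 (log2 fold changes of 0.51 to 0.70, adjusted p = 0.0559 to 0.0887).

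Against 31.6% of tested protein-coding genes, 1 of the 5 restriction factors and nucleic acid binding proteins was lower (20%). ISG20 (chr15:88635670-88656483), an exonuclease of viral RNA and the most abundant of them by count, had normalized counts of 3269, 4619 and 3830.0 in EV and 2677, 3189 and 2528 in PRL3. All PRL3 libraries lay below the EV libraries by a small margin, and it was 1.40-fold lower (log2 fold change -0.48, standard error 0.17, adjusted p = 0.0333). With library size alone its log2 fold change was 0.0086, and the call was also lost without EV B2, PRL3 B9 or PRL3 B11 (log2 fold changes of -0.33, -0.44 and -0.40). BST2 (tetherin, which holds budding viruses on the cell surface) was a low gene, at 42.6, 61.4 and 38.2 in EV and 8.24, 22.3 and 18.2 in PRL3. Its groups did not overlap, and its difference of -1.53 on the log2 scale (standard error 0.61, adjusted p = 0.0591) missed the threshold here. BST2 passed with DESeq2 (adjusted p = 0.0425), without EV B3 (adjusted p = 0.0311) and with all uniquely aligned reads (-2.00, adjusted p = 0.0148).

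SAMHD1, which depletes the nucleotides that viruses need, had a log2 fold change of -0.53 (adjusted p = 0.071), which passed without EV B2 (-0.70, adjusted p = 0.0208). It also passed with all uniquely aligned reads (-1.01, adjusted p = 0.00208) and stood at -0.038 with library size alone. IFI16 and TRIM22, a ubiquitin ligase with antiviral activity, had -0.12 (95% interval -0.51 to 0.27) and -0.20 (95% interval -1.61 to 1.20) on the log2 scale, and neither passed. The interval of TRIM22 was wide, as its EV libraries had only 31.7, 15.6 and 28.2 normalized counts.

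PARP9, DTX3L and PARP14 lie side by side on chromosome 3. PARP9 and DTX3L encode the subunits of a complex that modifies histones and viral proteins, and PARP14 encodes a related ADP-ribosyltransferase. PARP9 (chr3:122527924-122564577) had normalized counts of 1066, 793 and 872 in EV and 556, 493 and 483 in PRL3. The groups did not overlap, and PARP9 was 1.78-fold lower (log2 fold change -0.83, standard error 0.19, adjusted p = 0.00276). With library size alone its log2 fold change was -0.34 and the call was lost (adjusted p = 0.169). DTX3L (chr3:122564338-122575203) starts next to PARP9 and runs the other way, and its counts of 1183, 991 and 1165 in EV and 1139.7, 1019 and 1017 in PRL3 overlapped between groups (log2 fold change -0.072, standard error 0.16, 95% interval -0.42 to 0.28). PARP14 (chr3:122680839-122730840), the most abundant of the group by count, had 2215, 1689 and 1855 in EV and 1883, 1691 and 1564 in PRL3, which also overlapped (log2 fold change -0.16, standard error 0.16, adjusted p = 0.444).

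Of the other interferon-induced genes, IFI35 and IFI6 were lower. IFI35 (chr17:43006740-43014456), which encodes a partner of the regulator NMI, had normalized counts of 2224, 2641 and 1976 in EV and 809, 822 and 734 in PRL3. Its PRL3 libraries were nearly equal, and it was 2.89-fold lower (log2 fold change -1.53, standard error 0.17, adjusted p = 1.9e-05). IFI6 (chr1:27666064-27672212), a small membrane protein gene, had 666, 901 and 819 in EV and 258, 400.3 and 330.2 in PRL3. The groups stood apart, and IFI6 was 2.41-fold lower (log2 fold change -1.27, standard error 0.22, adjusted p = 0.00046). IFI27, a gene of the same family as IFI6, had 17.1, 51.7 and 63.7 in EV and 57.7, 57.3 and 52.5 in PRL3 and overlapped between groups (log2 fold change 0.33, standard error 0.52).

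IFI44 and IFI44L are neighbours on chromosome 1 whose products are less well understood. IFI44 overlapped between groups (log2 fold change -0.19, standard error 0.27). IFI44L was barely transcribed, with 8.53, 3.61 and 8.18 normalized counts in EV and 24.7, 14.1 and 32.2 in PRL3, higher in every PRL3 library without passing (log2 fold change 1.77, standard error 0.82, adjusted p = 0.0993). XAF1, a promoter of cell death, was the member left out of the test, with 15, 0 and 6 reads in EV and 1, 0 and 0 in PRL3. Of the 22 members that did not pass, 11 had a 95% interval that stayed within 2-fold in both directions, and the intervals of the other 11 reached 2-fold, so a change of that size lay within their error. These intervals are those of the TMM fit alone and leave out the choice of scaling. That choice moved the members' median from 0.25 (library size alone) to -0.70 (all uniquely aligned reads).

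Several members are neighbours, and within a library the ratio of their reads does not depend on how libraries are scaled. The 6 pairs compared were chosen after the members' values had been seen. For every 100 reads of DTX3L there were 90.1, 80.0 and 74.9 reads of PARP9 in the EV libraries and 48.8, 48.3 and 47.5 in the PRL3 libraries, so PARP9 was lower against its divergent neighbour in every PRL3 library. For every 100 reads of GBP2 there were 46.6, 57.2 and 84.1 reads of GBP1 in EV and 162, 180.3 and 202 in PRL3, the widest shift of the 6 pairs (1.57 on the log2 scale, pooled SD 0.33). For every 100 reads of OAS3 there were 15.9, 12.8 and 14.1 reads of OAS1 in EV and 9.49, 8.77 and 9.74 in PRL3.

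For every 100 reads of MX2 there were 10.1, 11.4 and 11.04 reads of MX1 in EV and 15.1, 17.0 and 13.8 in PRL3. For every 100 reads of IFIT3 there were 42.7, 18.6 and 28.2 reads of IFIT1 in EV and 15.0, 14.2 and 16.4 in PRL3. In each of these pairs the groups did not overlap, under any scaling. IFITM2 per 100 reads of IFITM3 was 13.4, 16.4 and 15.0 in EV and 19.9, 18.2 and 17.9 in PRL3, the smallest shift of the 6 (0.32 on the log2 scale, pooled SD 0.12). Each of the 6 pairs gave p = 0.1 in the two-sided exact permutation test, the smallest possible here, and 0.1 after Benjamini-Hochberg adjustment over the 6.

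**Figure D3:**
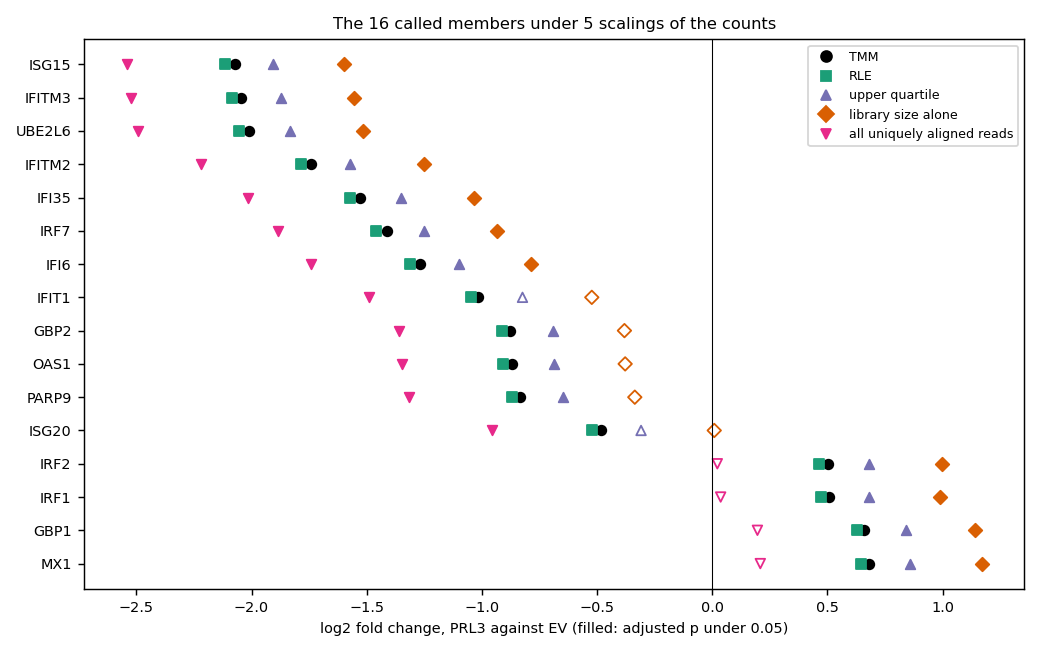
Log2 fold change of PRL3 against EV of the 16 called members under 5 scalings of the same counts (TMM, RLE, upper quartile, library size alone and all uniquely aligned reads), filled where the adjusted p is under 0.05 and open where it is not. The 7 members at the top of the plot, from ISG15 to IFI6, keep filled symbols under each scaling, whereas the 4 higher members are open with all uniquely aligned reads, between 0.022 and 0.21.

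Gene length was compared with the fold changes as a description. The median annotated gene length was 13.7 kb for the 12 lower members, 26.8 kb for the 22 that did not pass and 59.2 kb for the 4 higher members. Across the 38 tested members, the log2 fold change and the log10 gene length had a Pearson r of 0.45 and a Spearman rho of 0.41, and with exon length in place of gene length 0.61 and 0.50. These are descriptions across genes measured in the same 6 libraries, which are not independent replicates. The same relation was present over the 14443 protein-coding genes, with r of 0.28 and rho of 0.30 for gene length.

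A division at 10 kb, chosen after the values had been seen, put 9 tested members below it, of which 5 were lower (55.6%), against 48.4% lower and 8.84% higher of all tested protein-coding genes of that length. IRF7, IFITM2, IFITM3, IFI6 and IFI35 were these 5. Of the 29 longer members 7 were lower (24.1%) and 4 higher (13.8%), against 27.6% and 16.7% of protein-coding genes of 10 kb or more. The lower shares of both classes and the higher share of the longer members were near those of other genes of like length. Of the 9 shorter members 0 were higher. The median log2 fold change of protein-coding genes was -0.64 under 10 kb and -0.075 from 10 kb, and that of the members -1.41 and -0.16. The shorter members' median lay below the lower quartile of -1.34 of protein-coding genes under 10 kb. Lengths come from a later annotation than the counts, and those of ISG15 and IRF1 include distant upstream starts.

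**Figure D4:**
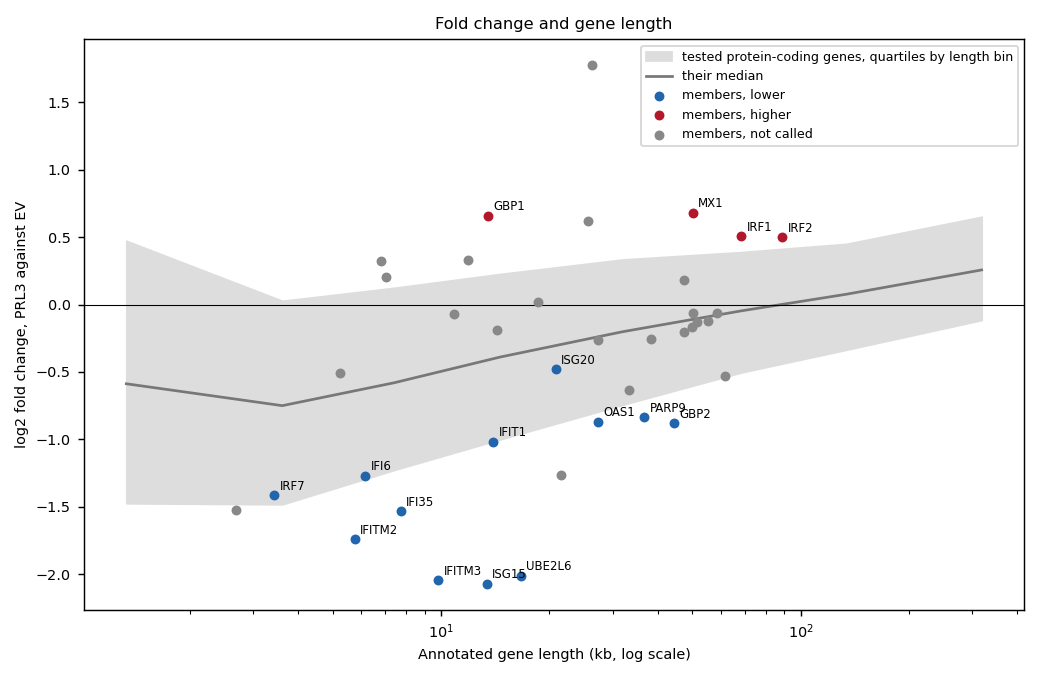
Log2 fold change of PRL3 against EV of the 38 tested members against annotated gene length (kb, log axis), with the median (line) and quartiles (band) of tested protein-coding genes by length bin. The band rises with length, from a median of -0.75 at 2 to 5 kb to 0.26 from 200 kb, and 13 members, among them IFITM3, ISG15 and UBE2L6, lie below the lower quartile of their bin, 9 above the upper quartile and 16 between.

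The genes beside the members were described in the same way. Of 52 tested protein-coding neighbours that are in no list here, 16 were lower (30.8%) and 6 higher (11.5%), near the 31.6% and 15.2% of all tested protein-coding genes, with a median log2 fold change of -0.37. The 4 with the smallest p were B4GALNT4 beyond the IFITM genes (-2.51, standard error 0.21), VAT1 on one side of IFI35 (-1.89, standard error 0.17), IFI27L2 beside IFI27 (-2.57, standard error 0.26) and RPL27 on the other side of IFI35 (-1.94, standard error 0.20). VAT1 encodes a vesicle membrane protein and RPL27 a ribosomal protein, and IFI27L2 was lower beside a member that did not pass.

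The interferon pathway around the members was read from lists of its other genes, whose counts stand against 31.6% lower and 15.2% higher of all tested protein-coding genes. Of 10 interferon ligand genes only IFNE, an interferon of epithelia, passed the filter, with 23.1, 21.7 and 10.9 normalized counts in EV and 56.6, 50.6 and 41.8 in PRL3 (log2 fold change 1.42, standard error 0.57, adjusted p = 0.0579). IFNB1, IFNA2, IFNK, IFNW1, IFNL1, IFNL3 and IFNG had 0 reads in all 6 libraries, which allows up to 0.0518 to 0.0821 CPM at a limit of 3 counts per library (counting error only), and IFNA1 and IFNL2 had at most 2 reads in a library. Of 9 receptor and kinase genes 2 were lower, IFNGR2, a chain of the interferon gamma receptor (-1.37, standard error 0.16), and TYK2, a receptor-bound kinase (-0.93, standard error 0.15). IFNAR1, IFNAR2 and JAK1, which carry the type I signal, had log2 fold changes of -0.084, 0.10 and -0.11, and none of the 3 passed.

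Of 8 feedback inhibitors 2 were lower, PIAS4 (-0.95, standard error 0.20) and PTPN11 (-0.72, standard error 0.18), and SOCS1 and SOCS3 did not pass. Of 12 tested genes that sense nucleic acid upstream of interferon 3 were lower. These were IRF3, the factor that starts interferon transcription (-1.31, standard error 0.16), DHX58, an RNA helicase that tunes the sensors (-1.08, standard error 0.22), and TRAF3, an adaptor (-0.56, standard error 0.15). RIGI, an RNA sensor, MAVS and STING1, adaptors, and TBK1, a kinase of IRF3, did not pass.

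Of 33 tested further interferon-stimulated genes 8 were lower (24.2%) and 6 higher (18.2%), against 31.6% and 15.2% of tested protein-coding genes. The 3 lower genes with the smallest p were PSMB8 (-2.26, standard error 0.19) and PSMB9 (-2.46, standard error 0.24), subunits of the immunoproteasome, and TAP1 (-1.93, standard error 0.18), a peptide transporter, which lie side by side on chromosome 6. The other 5 lower genes were NMI, APOL1, HELZ2, TRIM21 and ADAR. TAP1 had normalized counts of 1637, 1698 and 1534 in EV and 374, 495 and 403 in PRL3, with no overlap. The higher genes with the smallest p were GBP3, another guanylate-binding protein (1.59, standard error 0.30), DDX60L, a helicase-like gene (0.92, standard error 0.20), and NLRC5, a transactivator of antigen presentation genes (0.51, standard error 0.17). GBP3 had 129, 80.6 and 187 in EV and 411, 362 and 426 in PRL3, so that with GBP1 it stood apart in direction from GBP2.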

How the data were processed

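4sU-seq libraries of A375 cells (3 EV, 3 PRL3) were analysed from the counts per gene that the authors deposited, which are raw counts of reads on annotated exons of the expected strand without normalization. The authors aligned reads to GRCh38 with STAR 2.5.1b at default settings and counted them with htseq-count (HTSeq 0.6.1, reverse-strand setting) against Ensembl release 91, after quality control with FastQC 0.11.3, per the labels and the methods. Rows that name no gene stayed out of library sizes; the row of reads outside annotated exons alone held 28.7 to 69.1% of uniquely aligned reads.

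Symbols, positions and lengths came from GENCODE release 44 on the same build (57532 of 58243 identifiers matched), and older symbols were matched through RefSeq synonyms. PRL3 was compared with EV by edgeR 4.0.16 under R 4.3.3 (TMM scaling, filterByExpr by group, quasi-likelihood test, Benjamini-Hochberg adjustment over 23884 genes, threshold 0.05). To normalize, each count was divided by its library's effective size and multiplied by the mean of the 6 effective sizes, and standard errors follow from the F statistic. Single values also had a two-sided exact permutation test. Between libraries of a group the chi-square of the counts averaged 24.7 or more a gene, beyond sampling noise. Each library was counted as 1 replicate, though this spread cannot show that the libraries came from separate cultures. On simulated data for this comparison (22755 genes), 93 of 189 tested genes changed 2-fold were recovered (49.2%) with 4 false calls, so 2-fold changes can be missed. The simulation changed far fewer genes than the 5426 lower and 4783 higher genes called in the real data. The Benjamini-Hochberg cutoff depends on that number, so 49.2% does not measure the recovery of the real comparison.

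The members, lists and tests were chosen with earlier results of these data known, and adjustment was over all genes tested. Every member is named. Values by library are given for all transcription factors and, in each other role, for the member with the highest mean normalized count and the one with the smallest p, and for others where a sequence, a cluster or a single library called for it. Up to 3 called genes per direction of a pathway list and 4 neighbours are named by smallest p, and other names in those paragraphs were chosen after their values were seen. Promoter windows are those of a RefSeq table (GRCh38.p14). Alternatives were scaling by RLE, by upper quartile and by library size alone, all uniquely aligned reads as library size, DESeq2 1.42.0, limma-voom (limma 3.58.1), other filters, a threshold of 0.01, a fit on protein-coding genes and leaving out each library.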

Additional observations from a re-analysis of the deposited data

Results flagged for a closer look

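A signal stood outside the gene counts that the comparisons use. The share of uniquely aligned reads outside annotated exons (or on their opposite strand) averaged 66.3% ± 3.18 (SD, n = 3) in PRL3 libraries, against 33.3% ± 6.75 in the EV libraries, and the 3 PRL3 libraries lay above all EV libraries. These reads carry no gene name in the deposited counts, so how many lie in introns of the members could not be read from them, and their part in the members' fold changes was not tested. Taking all uniquely aligned reads as library size, which includes them, moved the median log2 fold change of the members from -0.23 to -0.70.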

How the results depend on the processing

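No paired analysis was possible because the EV and PRL3 libraries share no replicate numbers. Of the 12 lower calls, 7 (IFI35, IFI6, IFITM2, IFITM3, IRF7, ISG15 and UBE2L6) held under every alternative run, and each of the 4 higher calls was lost in at least 4. Scaled by library size alone, 3078 genes passed as lower and 9514 as higher, 7 members were lower and 9 higher, and the members' median was 0.25. With all uniquely aligned reads these values were 8473, 1952, 22, 0 (also 0 at an unadjusted p under 0.05) and -0.70. Those 22 included 10 members not called in the main fit, among them OAS2, OAS3, USP18, EIF2AK2, IFIT3, IFI16, BST2 and SAMHD1. Protein-coding genes alone gave 7 higher members and a median of -0.051, an adjusted p of 0.01 gave 2719 genes and 0 members higher (4 members at an unadjusted p under 0.05, 4 by DESeq2 at 0.05), upper-quartile scaling a median of -0.050, and at least 10 counts in every library -0.15. Leaving out single libraries gave 0 to 4 higher members (0 without PRL3 B10, where 5 stood at an unadjusted p under 0.05, 1 without B9 and 2 without B11) and medians of -0.29 to -0.21. Over all genes the median was 0.11, and 0.29 with upper-quartile scaling. A shift of scaling moves every gene alike; for the other alternatives the cause was not tested.

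Members near 0 changed sign. With library size alone, log2 fold changes were 0.37 for IFIH1, 0.44 for EIF2AK2, 0.23 for OAS3, 0.43 for IFIT3, 0.22 for USP18, 0.27 for TRIM22, 0.0086 for ISG20, 0.38 for IFI16, 0.42 for DTX3L, 0.33 for PARP14 and 0.31 for IFI44. With upper-quartile scaling they were 0.056 for IFIH1, 0.13 for EIF2AK2, 0.12 for IFIT3, 0.067 for IFI16, 0.11 for DTX3L, 0.022 for PARP14 and 0.0052 for IFI44, and with protein-coding genes only, in the same order, 0.053, 0.13, 0.12, 0.062, 0.11, 0.019 and 0.00043. With all uniquely aligned reads they were -0.45 for STAT2, -0.14 for IRF9, -0.27 for IFIT5, -0.29 for MX2 and -0.13 for IFI27. STAT2 was -0.016 with RLE scaling and -0.0056 with DESeq2, and OASL 0.53 with limma-voom. Leaving out single libraries gave -0.098 to 0.15 for STAT2, -0.33 to 0.050 for IFIH1, -0.15 to 0.11 for EIF2AK2, -0.14 to 0.054 for IFIT3, -0.020 to 0.41 for IFIT5, -0.26 to 0.10 for IFI16, -0.048 to 0.68 for IFI27, -0.35 to 0.15 for IFI44 and -0.85 to 0.66 for IFITM1. Depth limits the rarest members: XAF1, IFI44L and TRIM22 had under 50 reads in their best library, and 8 members had under 100.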

Other observations

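Within the EV group, library B2 stood at an edge for many members, a pattern noticed after the values had been seen and not tested. It held the highest EV value of ISG15, IFITM2, IFITM3, UBE2L6, IFI35, IFI6, IRF7 and ISG20, which are 8 of the 12 members lower in PRL3 cells (for IFITM3, 9522 normalized counts against 6674 in B1 and 7655 in B3). It held the lowest EV value of the other 4, OAS1, IFIT1, GBP2 and PARP9, and also of IFIT5, EIF2AK2, SAMHD1, IFI16 and IFI44 (for IFIT5, 657 against 1315 in B1 and 1165 in B3). The share of all genes with B2 at an edge of the EV group was not counted, so nothing is read from these counts about the members. B2 also had the lowest share of uniquely aligned reads outside annotated exons, 28.7% against 30.2% in B1 and 41.1% in B3, and the part of that share in these values was not tested.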
